A study of Mus musculus with 8 samples.

Results

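The arms of miR-223 and miR-142 were followed in the livers of mice on a diet without methionine and choline (MCD) and of mice on a normal diet. The 4 probes were those whose name, without the species prefix and the strand suffix, was miR-223 or miR-142, out of 1135 miRNA probes on the array. They were mmu-miR-223 and mmu-miR-223*, the major and the minor strand of one precursor, and mmu-miR-142-5p and mmu-miR-142-3p, the arms of another, all written without the mouse prefix from here on. Each probe had 1 spot on each of 8 arrays, 4 hybridised with control liver RNA and 4 with MCD liver RNA. All animals were male C57BL/6N mice, according to the methods, with no transgene and no other treatment, and the control animals received normal chow. The labels give 23 weeks of diet for both groups, whereas the methods state a shorter feeding period that started when the mice were young adults. The 23 weeks may thus be the age of the mice rather than their time on the diet, and the labels do not say so. The labels number the liver samples without naming the animals, so each p-value reflects only how these samples varied, which may be technical.

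miR-223 is a miRNA of granulocytes, monocytes and macrophages, in which it restrains inflammatory signalling, and mice that lack it have overactive neutrophils. miR-142 is made in nearly all blood cell lineages and both of its arms are used. In a normal liver these miRNAs come mainly from Kupffer cells (the resident macrophages), from other leukocytes and from blood in the vessels, while the MCD diet is a model of steatohepatitis, in which leukocytes enter the tissue. The RNA here was that of whole liver, so more cells that carry a miRNA and more miRNA per cell cannot be told apart.

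The mature sequences are shown because each arm has its own seed (bases 2 to 8, in capitals), the stretch that selects target mRNAs. They are those of RefSeq for GRCm38.p6, in which the 4 probes matched 4 of 4 entries, here named by the probe. The array files give accession numbers but no probe sequence.
miR-223: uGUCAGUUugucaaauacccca
miR-223*: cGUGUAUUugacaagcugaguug
miR-142-5p: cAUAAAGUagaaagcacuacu
miR-142-3p: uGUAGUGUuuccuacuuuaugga
The 4 seeds differed from each other, and none of the other 1678 mature mouse miRNAs in the RefSeq table shared bases 2 to 8 with any of them. The miR-142 arms held fewer G and C bases, 33.3% of 21 bases for the 5p arm and 34.8% of 23 for the 3p arm, than the miR-223 arms, 40.9% of 22 for miR-223 and 43.5% of 23 for miR-223*.

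The precursors are shown to place the arms within them (capitals mark both mature arms, 5′ arm first).
Mir223: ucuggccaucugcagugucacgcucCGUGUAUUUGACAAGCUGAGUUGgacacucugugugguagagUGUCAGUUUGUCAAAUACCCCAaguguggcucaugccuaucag
Mir142: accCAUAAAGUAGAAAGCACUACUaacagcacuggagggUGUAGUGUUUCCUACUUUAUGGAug
Mir223 lies at chrX:96242817-96242926 on the plus strand, within the annotated span of the long non-coding RNA gene F630028O10Rik. Mir142 lies at chr11:87756864-87756927 on the plus strand, and the next gene after it, Tspoap1, starts 1267 bases further on. The opposite strand of the Mir142 locus carries the entry Mir142b, whose 20-base mature form at chr11:87756906-87756925 is the reverse complement of bases of miR-142-3p. No probe for it was among those tested.

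The spots were read against limits set on each array by spots that hold no miRNA probe. The blank limit stood 2 SD over the average of the 1818 blank spots, and lay between 232.8 and 261.1 intensity units. The negative control limit, computed in the same way from 24 negative control spots, lay between 250.1 and 293.2. A probe was tested where its spot exceeded the blank limit on at least 4 arrays, which left 1076 probes. The local background around the spots was lower on MCD arrays, with array medians from 123 to 140 against 144 to 158 on control arrays (exact permutation p = 0.0286, two-sided, the smallest that 4 against 4 arrays can give). The control arrays all had position 1 in the scanner files and the MCD arrays position 2, so diet and array position cannot be told apart. The tissue label was borne out by miR-122, the hepatocyte miRNA, which lay above both limits on all 8 arrays.

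**Figure D1:**
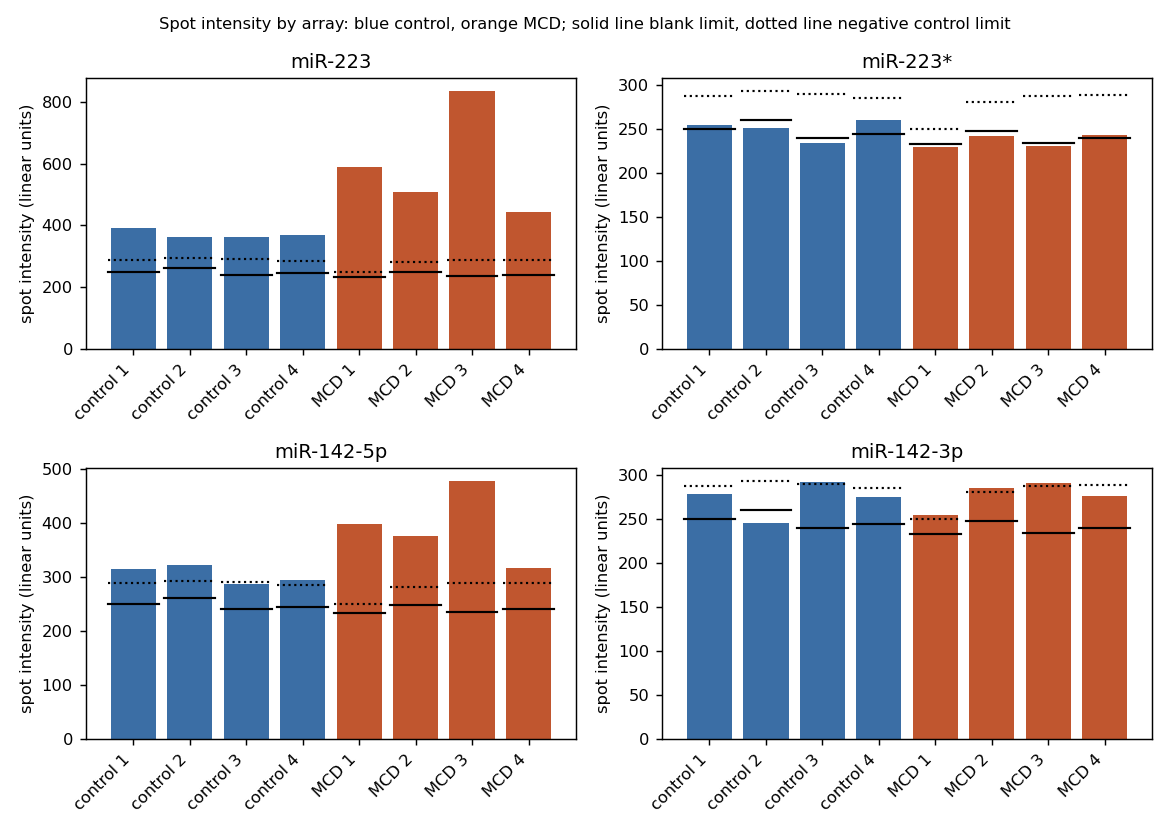
Spot intensity (linear units) of the 4 probes on each array, with control arrays in blue and MCD arrays in orange. The solid line is the blank limit and the dotted line the negative control limit of that array. miR-223 reached 361 to 392 in control and 443 to 834 in MCD, whereas miR-223* stayed between 230 and 261 on all arrays.

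miR-223 was higher in the liver of MCD-fed mice. Its spot intensity was 392, 362, 361 and 369 on control arrays 1 to 4 and 590, 508, 834 and 443 on MCD arrays 1 to 4. All 4 MCD arrays thus lay above all 4 control arrays, MCD 3 was the brightest, and MCD 4 was the nearest to control. The control values lay close together and the MCD values were spread, at 371 ± 14 and 594 ± 171 (SD, n = 4). After subtraction of the local background the means were 225 ± 14 and 467 ± 175 (SD, n = 4), a ratio of 2.07. Every spot of miR-223 exceeded both limits, and lay between 12.7 and 58.3 SD above the blank spots of its own block.

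For the comparison across probes, the intensities were background-corrected, log2-transformed and brought to common quantiles. On that scale miR-223 was at 8.0, 7.95, 8.03 and 8.11 in control and at 8.58, 8.52, 9.15 and 8.35 in MCD. It was upregulated by 0.63 ± 0.15 (log2, SE), or 1.55-fold, with a 95% interval from 1.24- to 1.93-fold (limma adjusted p = 0.0172). Of the 1076 tested probes, 5.76% were called higher by this rule, and 37 probes rose more than miR-223. The rise was 1.15 on the authors' processed values (limma adjusted p = 0.00203). In place of quantile normalization, no scaling gave 0.89, and 75th percentile and global scaling gave 0.91 and 0.93. Cyclic loess normalization gave 0.66, and scaling to the spike control spots 0.67. Leaving out 1 array gave rises from 0.46 (without MCD 3) to 0.74 (without MCD 4), and the call ended without control 1 (limma adjusted p = 0.0536).

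miR-223*, which comes from the 5′ arm of the same precursor, lay near background. Its spot intensity was 255, 251, 234 and 261 in control and 230, 242, 231 and 244 in MCD. These spots lay between 0.58 and 3.76 SD above the blank spots of their own block. The groups overlapped, 3 of the 8 spots exceeded the blank limit, and 0 exceeded the negative control limit. It was therefore left out of the tested probes. Without the filter, over all 1135 probes, its change was -0.07 ± 0.10 (log2, SE), with an interval from -0.30 to 0.15 (limma adjusted p = 0.756). Among the authors' processed values, that of control 3 was empty. A change of this strand was not detectable at this signal.

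**Figure D2:**
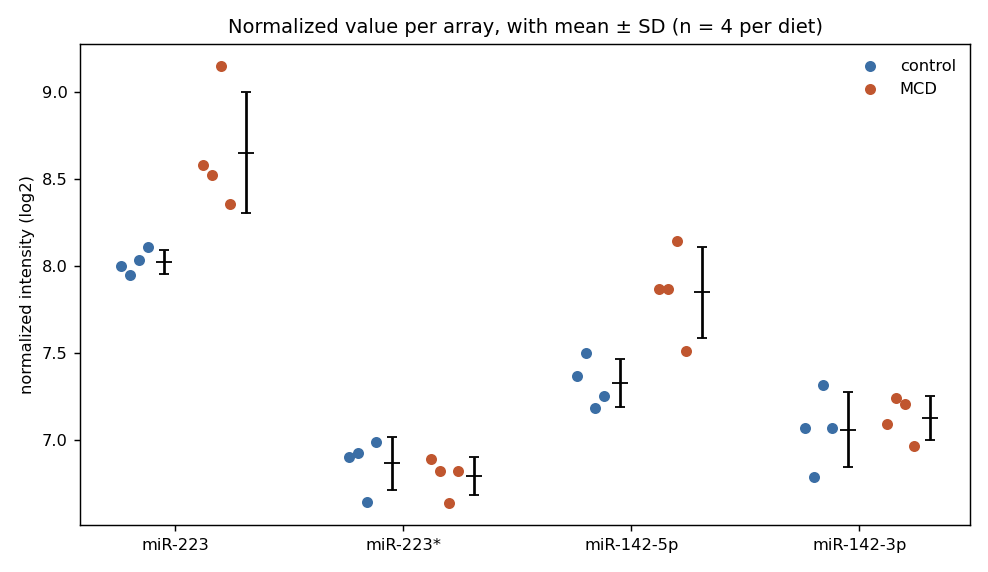
Normalized intensity (log2) of each probe on each array, control in blue and MCD in orange, with the mean ± SD (n = 4) beside each group. The groups did not overlap for miR-223 and miR-142-5p, by a narrow margin for the second, and overlapped for miR-223* and miR-142-3p.

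miR-142-5p was also higher in MCD liver. Its spot intensity was 314, 322, 286 and 295 on control arrays 1 to 4 and 398, 375, 477 and 316 on MCD arrays 1 to 4. MCD 4 lay below control 2, so the groups overlapped before background correction (304 ± 17 and 391.5 ± 66.6, SD, n = 4). After subtraction of the local background they no longer did, with 135 to 158 in control and 169 to 335 in MCD, a ratio of 1.72. The local background of these spots was 146 to 164 in control and 131 to 147 in MCD. Its part in the separation of the groups was not tested.

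On the normalized log2 scale miR-142-5p was at 7.36, 7.50, 7.19 and 7.25 in control and at 7.87, 7.87, 8.14 and 7.51 in MCD. The lowest MCD array lay just above the highest control array, and 8.83% of all tested probes had MCD arrays wholly above control arrays (6.23% wholly below). The rise was 0.52 ± 0.13 (log2, SE), or 1.43-fold, with a 95% interval from 1.18- to 1.75-fold (limma adjusted p = 0.0242). It was larger, 0.94, on the authors' values (limma adjusted p = 0.0162), although control 2 lay above MCD 4 there (110.1 and 95.03). Without background correction it was 0.31 (limma adjusted p = 0.0367). The call ended without control 1, 3 or 4 or MCD 1, 2 or 3 (limma adjusted p up to 0.0766), with a change of no less than 0.41.

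miR-142-3p, the opposite arm of that precursor, gave a dim signal in both diets. Its spot intensity was 279, 246, 293 and 275 in control and 255, 286, 291 and 277 in MCD, so the groups overlapped throughout. The spots exceeded the blank limit on 7 arrays and the negative control limit on 1 control array and 3 MCD arrays. The change was 0.07 ± 0.12 (log2, SE), with a 95% interval from -0.19 to 0.33, or 0.874- to 1.25-fold (limma adjusted p = 0.808). One spot was uneven, that of MCD 4, with a pixel mean of 326 against a pixel median of 277. With pixel means in place of medians the change was 0.14 (limma adjusted p = 0.407). It was 0.30 with the blank mean subtracted (adjusted p = 0.616), 0.42 with that of each block (adjusted p = 0.485), and 0.36 from the authors' values (adjusted p = 0.514). With arrays scaled to the spike control spots it was -0.15 (limma adjusted p = 0.505). That setting moved the median change of all tested probes from -0.01 to -0.24.

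Over the 4 probes, 2 passed the threshold and both were higher in MCD, 1 did not pass, and 1 was not tested. Over all tested probes 10.2% passed in either direction, with 4.46% called lower. By level, miR-223 stood clear of the limits on all arrays, and miR-142-5p did so on all but control 3, where it reached 286 against a negative control limit of 289.8. The plot of change against level shows where the tested probes lay among all others.

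**Figure D3:**
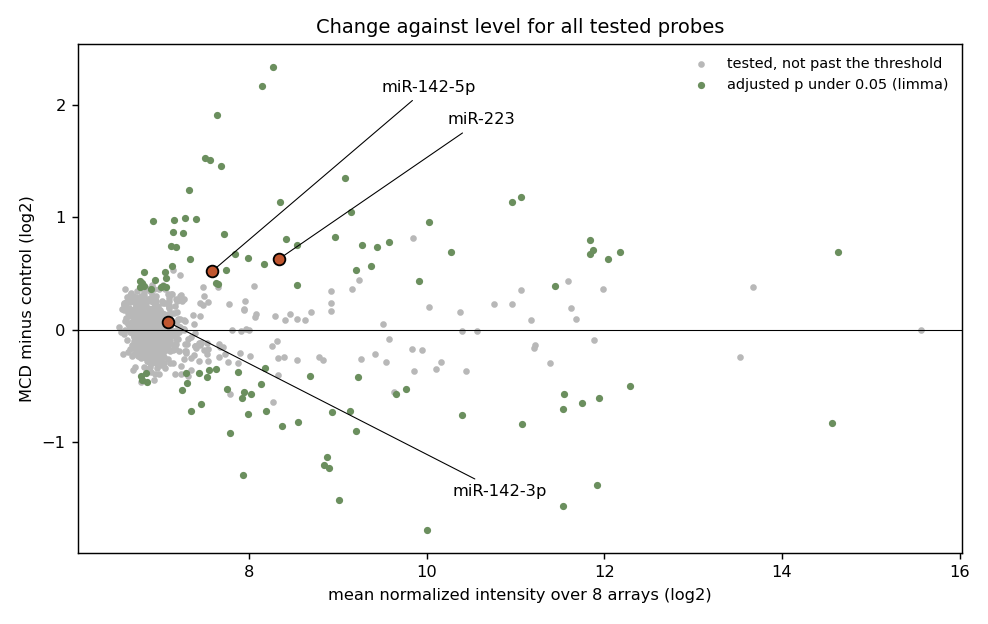
Difference between diets (log2, MCD minus control) against the mean normalized intensity (log2) for the 1076 tested probes, with those past an adjusted p of 0.05 in green and miR-223, miR-142-5p and miR-142-3p in orange. miR-223 and miR-142-5p lie above 0 at 0.63 and 0.52, and miR-142-3p lies at 0.07 among the dim probes.

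Whether the probes changed by different amounts was asked within arrays, by taking the log2 value of one probe minus that of another on the same array. The difference between miR-142-5p and miR-142-3p was 0.30, 0.71, -0.13 and 0.19 in control and 0.78, 0.63, 0.94 and 0.55 in MCD. Control 2, whose miR-142-3p spot was below the blank limit, overlapped with the MCD arrays. The 5p arm thus rose by 0.45 ± 0.19 (log2, SE) more than the 3p arm, which did not pass (exact permutation p = 0.0857, two-sided, and adjusted p = 0.129 over 3 pairs). Without control 2 it was 0.61 and passed (exact permutation, adjusted p = 0.0429). That array was the only control array to overlap, so leaving it out removed the overlap and the pass adds no support. For miR-223 minus miR-142-3p the control arrays spanned 0.72 to 1.16 and the MCD arrays 1.28 to 1.94. That difference of 0.56 ± 0.17 separated the groups (exact permutation p = 0.0286) but did not pass after adjustment (adjusted p = 0.0857). miR-223 and miR-142-5p differed in change by 0.11 ± 0.12 (exact permutation p = 0.400). With no scaling in place of quantile normalization, this last difference was 0.29 and that between miR-223 and miR-142-3p was 0.82. Both passed (adjusted p = 0.0429), the same for any scaling of these log2 values by 1 constant per array, which cancels within arrays. With cyclic loess normalization they were 0.12 and 0.58, and neither passed (adjusted p = 0.371 and 0.0857). On the authors' values miR-223 minus miR-142-5p was 0.21 and did not pass (adjusted p = 0.343). The separation of miR-223 minus miR-142-3p was lost after blank subtraction (0.61, exact permutation p = 0.114) and on the authors' values (0.79, exact permutation p = 0.143).

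The RefSeq table was also searched for mature miRNAs that a miR-142-5p probe might share sequence with. The longest run of bases in common was found with miR-3964, of another chromosome, which had its own probe on the array. The shared run is in capitals.
miR-142-5p: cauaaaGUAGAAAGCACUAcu
miR-3964: auaagGUAGAAAGCACUAaa
The run covered 13 bases, outside most of the seed. The miR-3964 spot had 264, 257, 250 and 269 units in control and 238, 259, 273 and 251 in MCD. It was above the blank limit on 7 arrays and above the negative control limit on 0. Its change was 0.11 ± 0.10 (log2, SE, limma adjusted p = 0.610), at a dim signal in both diets. The miR-3964 probe was chosen by its sequence, after the values of the miR-142 probes were seen. For the other members the longest run shared with another mature miRNA was 9 or 10 bases.

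The other leukocyte miRNAs of the array were taken as a list of 10 probes, the strands of miR-146a, miR-146b, miR-150, miR-155 and miR-342. Of these, 2 rose, 0 fell and 8 did not pass, where 5.76% of all tested probes were called higher and 4.46% lower. The list median was 0.09, beside -0.01 over all tested probes. miR-342-3p, found in lymphoid and myeloid cells, rose by 0.42 ± 0.10 (log2, SE, limma adjusted p = 0.0154), with spots of 335, 317, 289 and 301 in control and 384, 374, 404 and 333 in MCD. miR-146b, induced by inflammatory signals, rose by 0.38 ± 0.09 (limma adjusted p = 0.0226), with spots of 259 to 264 in control and 275 to 314 in MCD, above the negative control limit on 2 arrays. The inducible miR-155 was at 0.13 ± 0.12, the lymphocyte miRNA miR-150 at 0.08 ± 0.13, and miR-146a, a feedback inhibitor of innate signalling, at -0.25 ± 0.23 (limma adjusted p from 0.593 to 0.766 for these 3). Both calls ended under spike control scaling and after blank subtraction.

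Markers of other cells moved with the diet as well, and their part in the rise of miR-223 and miR-142-5p was not tested. The shares called over all tested probes were again 5.76% higher and 4.46% lower. Of 9 probes for mesenchymal cells (such as stellate and smooth muscle cells) 5 were called higher and 0 lower, and their summed normalized intensity was 2194 to 2360 in control and 3498 to 5147 in MCD. Of 2 endothelial probes, miR-126-3p rose by 0.67 ± 0.13 (log2, SE, limma adjusted p = 0.00523), and miR-126-5p was at 0.09 ± 0.12 (adjusted p = 0.738). Their sum, mostly miR-126-3p, was 3044 to 3455 in control and 4242 to 5991 in MCD. The call of miR-126-3p ended in 6 alternatives, among them spike control scaling (0.27, adjusted p = 0.242) and the authors' values (0.41, adjusted p = 0.390). Of 10 epithelial probes of the miR-200 family 3 rose, with sums of 1146 to 1195 and 1822 to 3320. Of 5 hepatocyte probes 4 fell, with sums of 41936 to 44826 and 20664 to 27479. These sums are mostly miR-122, whose normalized value was 14.98 (log2) on all 4 control arrays. Quantile normalization gives equal values to equal ranks, so the narrow control range is in part set by it. The miR-122 spots ranged from 30938 to 40551 in control and from 14535 to 18846 in MCD.

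The red cell list had 5 probes, of which 0 passed limma. With no adjustment, at 0.05, 1 of them was lower and 0 were higher, where 9.11% and 12.5% of all tested probes were. Its sum overlapped between the diets, 998 to 2171 in control and 1048 to 2908 in MCD. miR-451, the most abundant miRNA of red cells, had spots of 702, 1625, 502 and 739 in control and 805, 1440, 1571 and 1949 in MCD. By spot intensity, MCD 4 had the most miR-451 and the least miR-223 of the MCD group (443). Control 2, with the second most miR-451, had 362 units of miR-223, within the narrow control range. Other arrays went the other way. MCD 3, with 1571 units of miR-451, had the most miR-223 (834), and control 3 had the least of both (502 and 361). The change of miR-451 was 0.81 ± 0.44 (limma adjusted p = 0.318). It was 0.48 without MCD 4, and it passed under spike control scaling (0.69, adjusted p = 0.0306). The part of blood content in the rise of miR-223 was not tested.

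**Figure D4:**
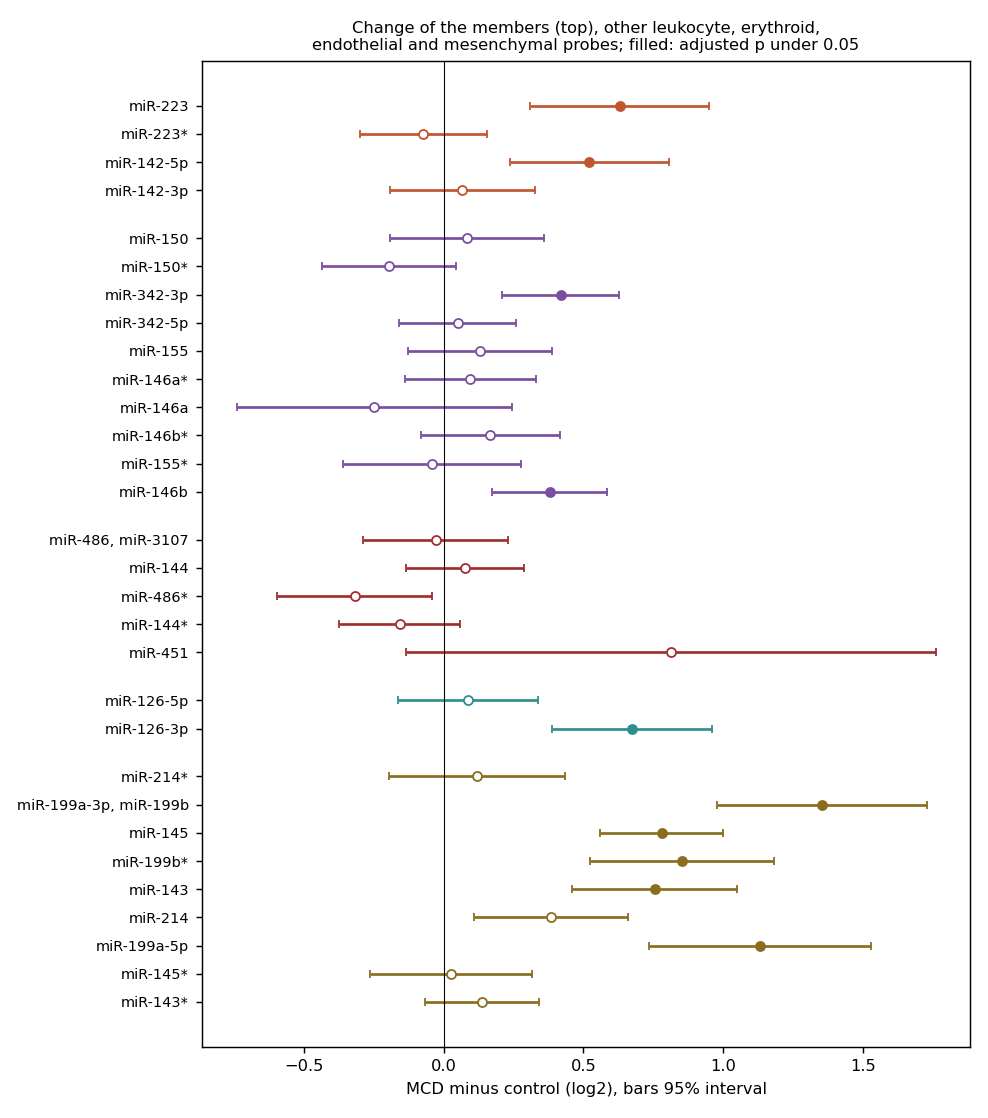
Change between diets (log2, MCD minus control, with 95% intervals from limma) of the miR-223 and miR-142 probes in orange, followed by the other leukocyte, the erythroid, the endothelial and the mesenchymal probes. Filled points passed an adjusted p of 0.05. miR-223* is from the fit over all 1135 probes, as are the other 3 orange points.

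The probes whose pattern over the 8 arrays was most like that of miR-223 were sought among the 224 mouse probes that exceeded their array's negative control limit 4 times or more. They were miR-199b* (Pearson r = 0.97), miR-199a-5p (r = 0.97) and the probe shared by miR-199a-3p and miR-199b (r = 0.96), all miRNAs of mesenchymal cells. Of the 224 probes, 15 had r above 0.9 with miR-223. The difference between the diets is a part of these values. The deviations from the diet means still had r of 0.90, 0.90 and 0.94, over arrays that share RNA and scaling. miR-199a-5p had spots of 326, 338, 351 and 343 in control and 659, 602, 991 and 460 in MCD. By spot intensity its order within the MCD group was that of miR-223, with MCD 3 highest and MCD 4 lowest. On the normalized scale these 2 arrays kept their places, but miR-199a-5p was higher on MCD 2 than on MCD 1, unlike miR-223.

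For miR-142-5p the most alike probes were miR-199b* (r = 0.97), miR-195 (r = 0.96), of the miR-15 family, and miR-411* (r = 0.95), of the imprinted Dlk1-Dio3 region, and 20 of the 224 had r above 0.9. miR-223 and miR-142-5p had r = 0.91 with each other, and r = 0.72 for the deviations from the diet means. For miR-142-3p the closest were miR-30a* (r = 0.85), miR-140* (r = 0.76) and miR-154* (r = 0.75), and its r with its partner arm was 0.17, or -0.02 for the deviations. For miR-223* the closest, miR-1940, miR-5112 and miR-1894-3p, had r from 0.72 to 0.73.

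**Figure D5:**
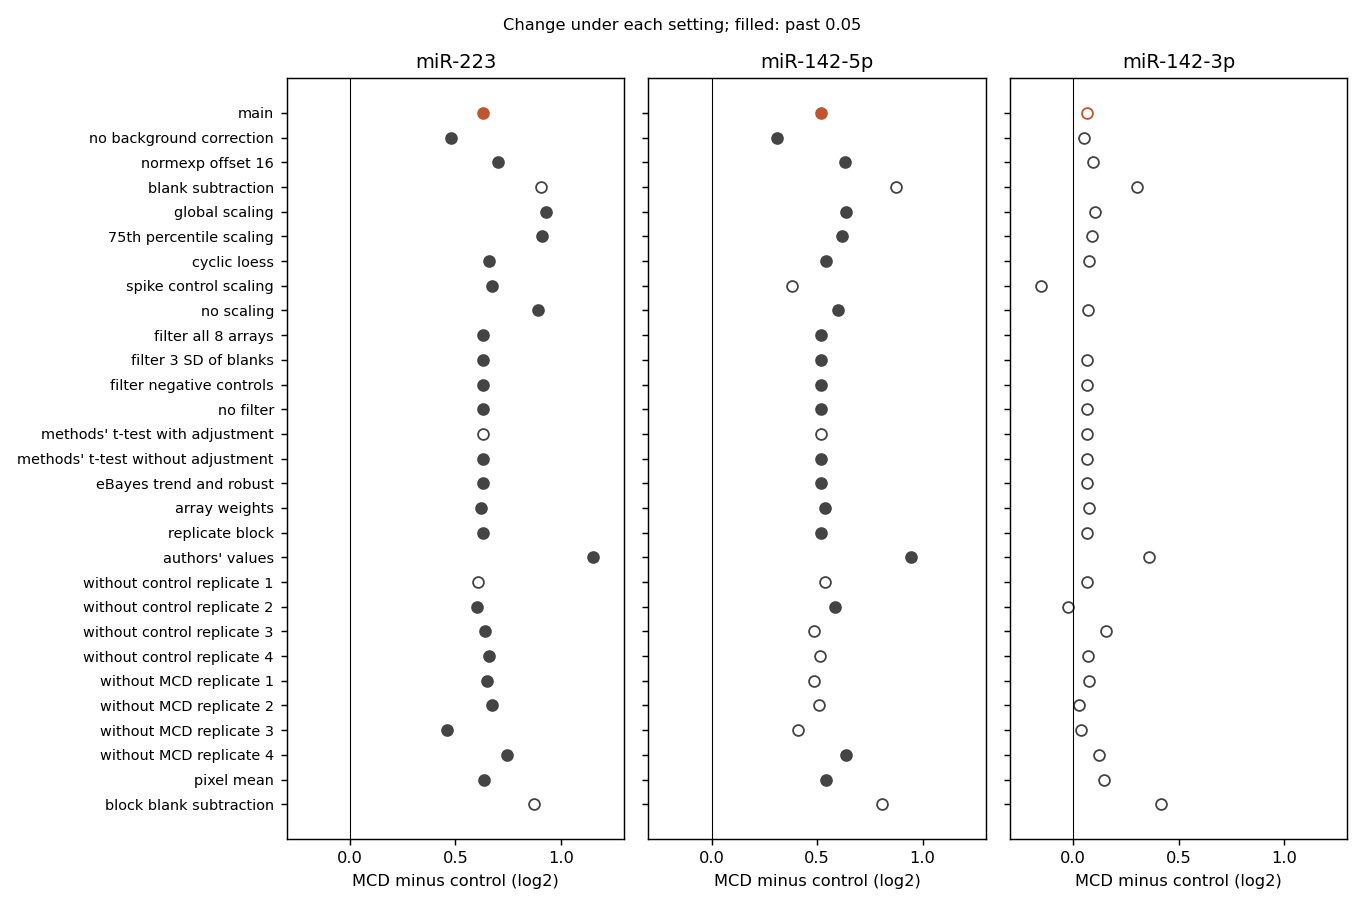
Change between diets (log2, MCD minus control) of miR-223, miR-142-5p and miR-142-3p under each way of processing the data, with filled points for a p under 0.05 (adjusted, except where the label says without adjustment) and the reported values in orange at the top. The points of miR-223 range from 0.46 to 1.15 and those of miR-142-5p from 0.31 to 0.94, with open points where the call ended, whereas those of miR-142-3p lie on both sides of 0, from -0.15 to 0.42.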

How the data were processed

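Total RNA of liver was hybridised to a mouse miRNA oligo chip and scanned, and the scanner files, as deposited, give the uncorrected intensity of every spot (pixel median and mean) with its local background. The labels name Hy5, the methods Hy3 and Hy5, and the scanner columns 1 wavelength on all arrays, so which dye was read is not settled. The authors also deposited processed intensity values, which equalled the spot minus the trimmed blank mean times 1 factor per array, within 0.0254%. They were used as an alternative.

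Intensities were corrected with normexp (offset 50), log2-transformed and quantile-normalized over the 1135 probes (limma 3.58.1, R 4.3.3). The offset makes fold changes of dim probes smaller. For miR-223, an offset of 16 gave a change of 0.70 (log2) in place of 0.63, and quantile normalization gave less than the other scalings did. Groups, taken from the labels, were compared with lmFit and eBayes (two-sided, Benjamini-Hochberg over 1076 probes, threshold 0.05), without a block. Pairs of probes were compared by exact permutation. The script was tested on simulated data. The number of arrays limits the precision.

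The members and lists (leukocyte, erythroid, endothelial, mesenchymal, hepatocyte and epithelial) were chosen with earlier results of these data known. Named probes were the members, list probes, and for each member the 3 with the highest correlation. Alternatives covered background, scaling, filter, test, block, authors' values and leaving out arrays.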

Additional observations from a re-analysis of the deposited data

How the results depend on the processing

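miR-223 and miR-142-5p were higher in MCD under all 28 alternatives, and miR-223 passed the threshold in 24 and miR-142-5p in 18 of them. For each probe, 1 of these passes rests on an unadjusted p, that of the methods' t-test without adjustment. Settings that changed only the filter, the block or the test, other than weighting the arrays, kept the same normalized values. Their changes stayed at 0.63 and 0.52, so their direction was fixed in advance. Blank subtraction gave 0.91 for miR-223 (limma adjusted p = 0.0816) and 0.87 for miR-142-5p (adjusted p = 0.111), and block blank subtraction, chosen after seeing the data, gave 0.87 and 0.81. The methods' t-test with adjustment left the changes at 0.63 and 0.52 (adjusted p = 0.110 for both), and spike control scaling gave 0.38 for miR-142-5p (adjusted p = 0.135). Leaving out 1 array gave 0.46 to 0.74 for miR-223, 0.41 to 0.64 for miR-142-5p and -0.025 (without control 2) to 0.15 for miR-142-3p, which turned to -0.15 under spike control scaling. It had no value where all 8 arrays had to exceed the blank limit. The difference of means of miR-223*, with no test, was -0.25 after blank subtraction and -0.32 under spike control scaling. With no scaling, or with global, 75th percentile or spike control scaling, miR-223 minus miR-142-3p was 0.82 and miR-223 minus miR-142-5p 0.29, both past the threshold, which is 1 result since a constant per array cancels. With blank subtraction, block blank subtraction, the authors' values or pixel means, miR-223 minus miR-142-3p no longer separated the diets (exact permutation p from 0.114 to 0.143). Leaving out 1 array gave 0.42 to 0.64 and 0.02 to 0.16 for these, and 0.33 to 0.61 for miR-142-5p minus miR-142-3p. The last passed the threshold only without control 2, its only overlapping control array (exact permutation, adjusted p = 0.0429). Of the 10 other leukocyte probes, 0 were higher after blank subtraction, block blank subtraction or spike control scaling, 1 without scaling, with the negative control filter or with pixel means (also chosen after seeing the data), and 1 to 2 with 1 array left out. The causes were not tested.

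Over all probes, 62 were higher and 48 lower. The counts were 30 and 16 after blank subtraction, 28 and 15 after block blank subtraction, 34 and 93 under spike control scaling, 65 and 30 under global, 64 and 31 under 75th percentile scaling, and 55 and 33 without scaling. They were 37 and 25 by the methods' t-test with adjustment and 123 and 95 without it. With 1 array left out they were 44 to 69 and 27 to 48. With the replicate number as a block, 67 were higher and 51 lower, and miR-223 stayed at 0.63 (adjusted p = 0.0153). Same-numbered arrays deviated together with correlations from -0.00685 to 0.0953, so the numbers were not taken as pairs. A slide block was not run, since the files name no slide. The spots of miR-142-3p and miR-223* lay near the blank limit, and what this did to their precision was not tested.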

Other observations

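Among the same 224 mouse probes, the deviations from the diet means that followed those of miR-223 most closely were those of miR-10b (r = 0.95), and for miR-142-5p those of miR-23b (r = 0.92). Both were chosen after their values were seen, and the 8 arrays behind each value share RNA and scaling with the other probes.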
